A study of Homo sapiens with 18 samples.

Results

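The baseline chromatin of untreated HEK293T cells was described from the peak lists of 3 H3K27ac and 3 CTCF ChIP-seq libraries (the CTRL groups). HEK293T cells, a transformed human line first derived from embryonic kidney, were obtained by the study from a cell bank. These 6 of the 18 samples held 240857 of the 506359 peaks of the series. The other samples were cells that had received 1 mM valproic acid for 1 day and input chromatin, and they were not used here. Peaks of an antibody that shared at least 1 bp were merged over its 3 libraries, and a merged region was kept as a consensus region where at least 2 of the 3 libraries had a peak in it. This gave 26492 H3K27ac regions and 54520 CTCF regions, all on chromosomes 1 to 22 of hg38. The CTCF number depends on the libraries, with 34644 regions found in 3 of 3, and 35281 or 35757 that met the rule when replicate 2 or replicate 3 was left out.

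H3K27ac is acetylation of lysine on the tail of histone H3, placed by the acetyltransferases EP300 and CREBBP and removed by histone deacetylases. It is spread over the nucleosomes that flank active promoters and enhancers, so its peaks are broad and irregular. CTCF is an eleven-zinc-finger protein that reads a long DNA motif, and its peaks are narrow and centred on that motif. CTCF halts the loop-extruding cohesin ring, and loops tend to form between motifs that face each other, which separates neighbouring regulatory domains.

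Motif matches show what the CTCF antibody enriched. The capitals below mark the match to the core of the CTCF consensus with at most 2 mismatches, in lower case are the 20 bases on either side, and every sequence is read in the direction in which CCACNAG stands 5′ to 3′. The first 3 come from promoters with both H3K27ac and CTCF, the next 2 from promoters with CTCF alone, the following 2 from the CTCF regions of highest rank inside and outside acetylated chromatin, and the last 2 from the widest acetylated region, in the HOXA cluster. Where the gene or region of highest rank had no core match, the next one with a match is shown, and the choice of the remaining ones was made after their values were seen. PSG4, a promoter with CTCF alone, ranked above CEACAM7 and CEACAM5 and had a match, but is not shown.

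U2AF2, chr19:55653790-55653842, plus strand: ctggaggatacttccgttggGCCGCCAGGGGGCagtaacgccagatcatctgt
SH3GL1, chr19:4400613-4400665, minus strand: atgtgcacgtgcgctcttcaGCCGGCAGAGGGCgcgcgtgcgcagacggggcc
STAG1, chr3:136752329-136752381, minus strand: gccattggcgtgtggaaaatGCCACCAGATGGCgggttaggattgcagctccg
CEBPE, chr14:23120916-23120968, plus strand: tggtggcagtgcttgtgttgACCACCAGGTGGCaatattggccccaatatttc
CEACAM5 and CEACAM7, chr19:41706805-41706857, plus strand: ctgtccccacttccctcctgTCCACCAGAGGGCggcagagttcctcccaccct
intergenic, LBR the nearest gene, chr1:225475069-225475121, plus strand: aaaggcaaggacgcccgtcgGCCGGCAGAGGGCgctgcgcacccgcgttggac
GBX1 intron, chr7:151172679-151172731, minus strand: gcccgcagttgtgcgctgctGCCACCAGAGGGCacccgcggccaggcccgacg
HOXA cluster, CTCF region 3 of 6, chr7:27161118-27161170, minus strand: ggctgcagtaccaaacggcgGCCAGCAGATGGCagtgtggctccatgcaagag
HOXA cluster, CTCF region 6 of 6, chr7:27179886-27179938, minus strand: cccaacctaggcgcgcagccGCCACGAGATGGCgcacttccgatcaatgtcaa

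The core was found within 100 bp of the summit in 42.3%, 41.2% and 41.6% of the CTCF peaks of replicates 1, 2 and 3, and in 2.80%, 2.54% and 2.52% of windows of the same size 2 kb away. In the H3K27ac peaks it was found in 4.09%, 4.65% and 4.31% of windows at the summit and in 1.97%, 2.35% and 2.17% of those 2 kb away. The longer consensus of 20 letters, which is the form the comparison was planned with, was met with at most 2 mismatches in 0.841%, 0.663% and 0.668% of the CTCF peaks and in 0.0114%, 0.0135% and 0.0101% of the H3K27ac peaks. Both forms separated the antibodies without overlap of the libraries, and the core was adopted for description after the low share of the longer form was seen.

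The libraries of an antibody were not equal, which bears on what follows. The lowest recovered background coverage was similar in all 6 libraries (3.51 to 3.93 fragments). The numbers of reads and the use of input are unknown, so this does not show equal depth. Of the H3K27ac peaks with a recovered background, 26.8%, 4.59% and 5.71% in replicates 1, 2 and 3 lay at this lowest level. For CTCF the shares were 41.4%, 15.6% and 14.6%, so the local background under the folds also differed in replicate 1. Replicate 1 of each antibody had the shortest list and the lowest median fold enrichment of peaks over their local background. For CTCF this median was 9.75 in replicate 1 against 15.3 and 15.6 in replicates 2 and 3, and for H3K27ac it was 5.69 against 7.04 and 7.03. CTCF replicate 1 also stood apart in base composition. The median GC content of the 501 bp around its summits was 53.1%, against 48.7% and 48.5% in the other 2 CTCF libraries. The largest gap was at strong sites of low GC content relative to the other CTCF regions. Among the CTCF regions with a fold of at least 30 in both replicates 2 and 3, the 3818 in the lowest GC quintile had median folds of 57.9 and 57.1 in those libraries and 7.95 in replicate 1, in which 1031 of them had no peak. In the fourth quintile the 3 medians were 64.7, 60.3 and 59.0, and 4 of 3685 regions lacked a peak in replicate 1. Of all CTCF regions in the lowest GC quintile 37.2% had a peak in replicate 1, against 99.8% and 98.6% in replicates 2 and 3. The H3K27ac libraries differed otherwise. In replicate 1 the median fold rose from 5.16 in the lowest GC quintile of regions to 8.77 in the highest, while it rose from 4.52 to 24.96 in replicate 2. The main overlap and promoter class counts below are therefore also given without replicate 1. The part of base composition in the results was not tested.

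**Figure D1:**
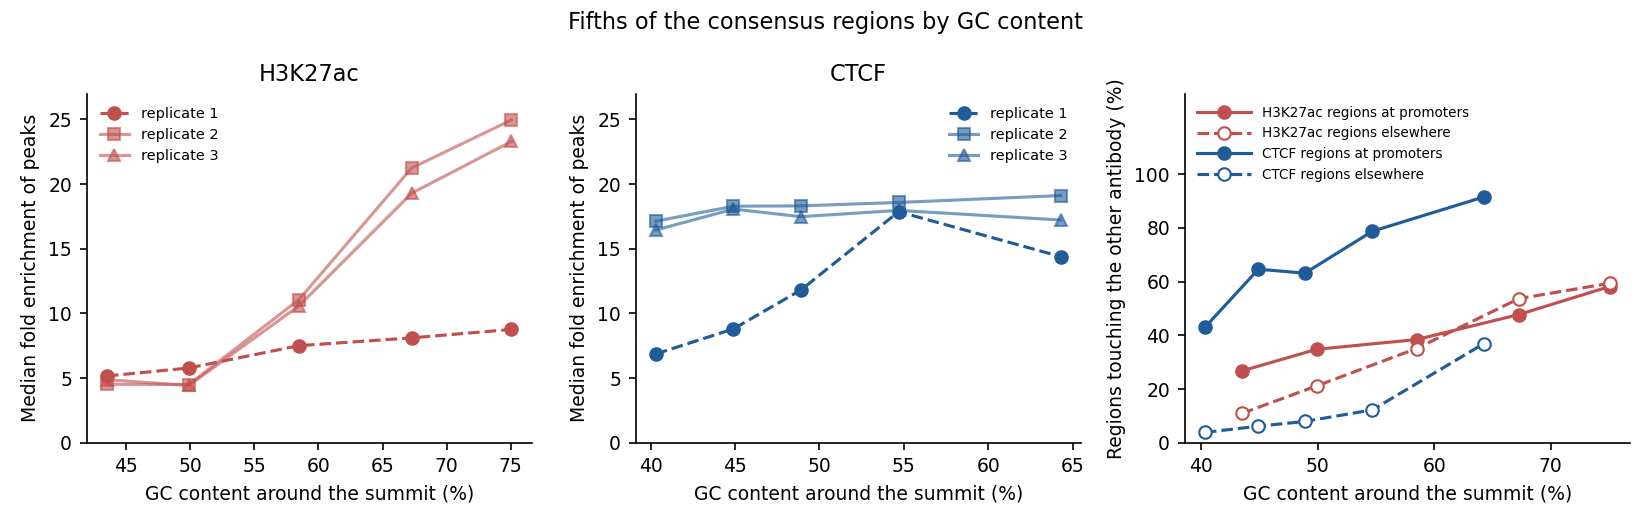
Median fold enrichment of peaks by library in quintiles of the H3K27ac (left) and CTCF (middle) consensus regions by GC content around the summit in %, and the share of regions in % that touch a region of the other antibody in the same quintiles, at promoters and elsewhere (right). CTCF replicate 1 falls to 6.87 at a median GC content of 40.3% where replicates 2 and 3 stay at 17.1 and 16.4.

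Acetylated regions were fewer and broader than CTCF regions. The H3K27ac libraries held 26299, 29583 and 29799 peaks and the CTCF libraries 39818, 58782 and 56576, so that every CTCF list was longer than every H3K27ac list. The median peak width was 1003, 1210 and 1193 bp for H3K27ac and 602, 700 and 699 bp for CTCF, a mean of 1135 ± 115 against 667 ± 56.3 bp (SD, n = 3 per antibody, exact permutation test, two-sided, p = 0.1, adjusted p = 0.125). The covered length did not separate the antibodies, with 34.4, 46.5 and 46.2 Mb for H3K27ac and 26.2, 43.5 and 41.4 Mb for CTCF (exact permutation test, two-sided, p = 0.5). With 3 libraries against 3, the smallest p such a test can give is 0.1, so no comparison between the antibodies could pass 0.05. The p-values were adjusted with the Benjamini-Hochberg method over 10 comparisons between libraries. Nothing in the labels says that replicates were separate cultures, so the p-values measure the spread between these libraries. Among the consensus regions, H3K27ac covered 49.6 Mb and CTCF 45.5 Mb, which is 1.80% and 1.65% of the 2756 Mb of sequenced autosomal bases. The median widths were 1549 and 780 bp and the widest regions 51325 and 6787 bp.

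**Figure D2:**
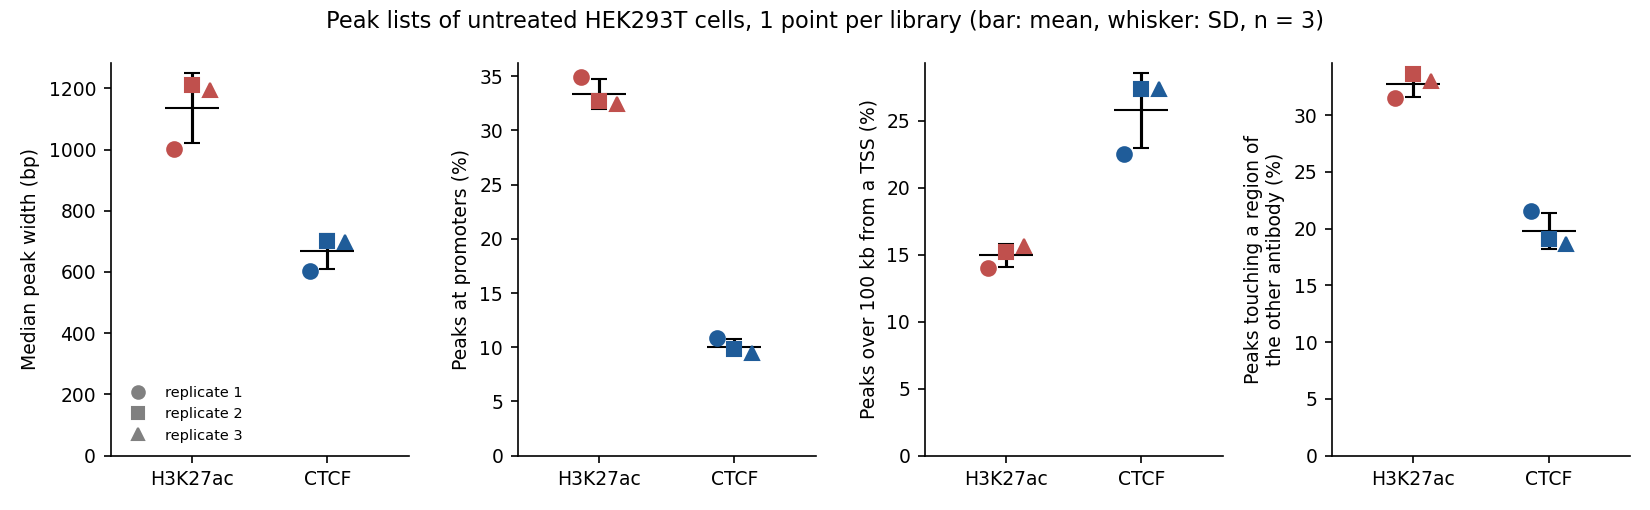
Median peak width in bp, share of peaks within 1 kb of a protein-coding TSS in %, share over 100 kb from one in %, and share touching a consensus region of the other antibody in %, with 1 point per library and the mean ± SD (n = 3 per antibody). The 3 H3K27ac and the 3 CTCF libraries do not overlap in any of the 4 measures. The last share depends on the number of regions of the other antibody.

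H3K27ac was the promoter mark of the pair. Promoter peaks, those whose summit was at most 1 kb from a transcription start site (TSS) of protein-coding genes, made up 34.9%, 32.7% and 32.5% of the H3K27ac lists and 10.9%, 9.85% and 9.45% of the CTCF lists (exact permutation test, two-sided, p = 0.1, adjusted p = 0.125). Introns held 39.8%, 39.7% and 40.5% of H3K27ac peaks and 45.9%, 47.8% and 48.1% of CTCF peaks. Over 100 kb from any protein-coding TSS lay 14.03%, 15.2% and 15.7% of H3K27ac peaks and 22.5%, 27.4% and 27.4% of CTCF peaks. In both measures all CTCF libraries exceeded all H3K27ac libraries (exact permutation test, two-sided, p = 0.1, adjusted p = 0.125 for each). The difference in the promoter share was 23.3 percentage points, and 25.3 when every list was shortened to its strongest 26299 peaks.

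Acetylation and CTCF met in a minority of regions of either kind. Of the H3K27ac regions, 9455 (35.7%) touched a CTCF region, and of the CTCF regions, 10151 (18.6%) touched an H3K27ac region. Per library, 31.5%, 33.7% and 33.0% of H3K27ac peaks touched a CTCF consensus region, and 21.6%, 19.1% and 18.7% of CTCF peaks an H3K27ac consensus region. The antibodies did not overlap in this share either (exact permutation test, two-sided, p = 0.1, adjusted p = 0.125). Both shares count nearly the same contacts, and CTCF had more regions, so this comparison depends on the number of regions. It was not made with consensus sets of equal number. Since the regions were called from separate libraries of many cells, a region with both need not carry both on the same chromosome copy. Without replicate 1 of both antibodies the shares were 36.3% and 18.4%.

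CTCF summits were far denser inside acetylated regions than outside them. Inside lay 9347 summits, or 188.5 per Mb, against 16.7 per Mb outside. One acetylated region seldom held many. Of the H3K27ac regions, 17037 had no CTCF region, 8795 had 1, 607 had 2 and 53 had 3 or more, with 6 as the most. The summit lay toward the centre of the acetylated region more often than at its rim, since 24.5% fell in the 2 central of 10 equal parts of the length and 10.8% in the 2 outermost parts. The median distance between the CTCF summit and the H3K27ac summit of the same region was 324 bp. Over all CTCF summits, those inside acetylated regions counted at a distance of 0, the median distance to the nearest H3K27ac region was 24.1 kb, and 1978 (3.63%) lay over 500 kb away, while no H3K27ac summit was that far from a CTCF region.

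The overlap differed by location. At promoters 85.7% of the 5074 CTCF regions were acetylated, with a Wilson 95% interval of 84.7% to 86.6%, and away from promoters 11.7% of 49446 (11.5% to 12.02%). The H3K27ac regions differed less, with 48.8% touching CTCF at promoters and 28.3% elsewhere. These intervals cover counting error only. The same shares rose with GC content. Away from promoters, the acetylated share of CTCF regions was 3.90%, 6.19%, 7.97%, 12.3% and 36.9% in GC quintiles 1 to 5, and at promoters it went from 43.0% to 91.5%. The H3K27ac regions that touched CTCF rose from 11.3% in the lowest to 58.5% in the highest quintile, and from 11.2% to 58.5% among those with a peak in both replicates 2 and 3. Of the regions with a peak in both replicates 2 and 3, the acetylated share in the lowest and highest CTCF quintile was 4.35% and 55.9%. These subsets hold most regions, and the regions, quintiles and overlaps were still defined with replicate 1. The gradient without replicate 1 was therefore not tested.

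Strong and broad acetylated regions carried CTCF more often. The share touching CTCF was 17.8% of the 1310 regions under 500 bp, 33.0% of those of 1 to 2 kb and 63.7% of the 747 regions of 5 kb or more. Per Mb of acetylated sequence the density of CTCF summits went from 248 per Mb under 500 bp and 279 per Mb at 500 to 1000 bp to 128 per Mb at 5 kb or more. By rank, the share went from 19.6% in the lowest to 52.0% in the highest quintile, and promoters made up 4.98% and 74.9% of these quintiles. The rank is the percentile of a region's −log10 q-value within each list, averaged over the libraries. A library without the region counts at the bottom of the scale. Within each library, H3K27ac peaks that touched CTCF were wider than those that did not, at 1464 against 824 bp in replicate 1, 1726 against 994 bp in replicate 2 and 1729 against 985 bp in replicate 3. The difference was 705 ± 56.9 bp (SD, n = 3) and had the same sign in 3 of 3 libraries (exact sign-flip permutation test, two-sided, p = 0.25, the smallest it can give with 3 libraries, adjusted p = 0.312 over 5 within-library comparisons). Since 1 bp of overlap counts as touching, a wider peak touches a CTCF region more easily by its length alone. The part of length in this difference was not tested. The median fold was 7.28 against 5.19 in replicate 1, 15.1 against 5.30 in replicate 2 and 14.4 against 5.49 in replicate 3 (exact sign-flip permutation test, p = 0.25, adjusted p = 0.312).

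CTCF strength was not ordered by acetylation in the same way in all libraries. The median fold of acetylated against unacetylated CTCF peaks was 11.9 against 9.45 in replicate 1. It was 14.4 against 15.4 in replicate 2 and 15.2 against 15.6 in replicate 3. The sign in replicate 1, the library with weak sites at lower GC content, was opposite to the other 2 (exact sign-flip permutation test, p = 1). Without replicate 1 the mean difference was −0.67. The rank of a CTCF region and its acetylated share were not related in a single direction, with 16.1%, 12.2%, 14.8%, 17.8% and 32.1% acetylated in rank quintiles 1 to 5. A missing peak lowers this rank. Of the CTCF regions in the lowest GC quintile 37.2% had a peak in replicate 1, against 87.8% in the highest. How far this shaped the rank quintiles was not tested.

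The CTCF motif was less frequent at acetylated sites. The core was present in 34.7%, 32.5% and 33.9% of acetylated CTCF peaks of replicates 1, 2 and 3 and in 44.4%, 43.3% and 43.3% of unacetylated ones, a difference of −9.93 ± 0.763 percentage points (SD, n = 3, exact sign-flip permutation test, two-sided, p = 0.25). Between promoters and other sites the difference was −14.3 ± 1.12 percentage points (exact sign-flip permutation test, p = 0.25). With the longer consensus the differences were −0.44 ± 0.149 and −0.66 ± 0.116 percentage points, with the same sign in 3 of 3 libraries (exact sign-flip permutation test, p = 0.25, adjusted p = 0.312 for each). The acetylated and unacetylated sites differed in location, since promoters made up 42.8% of acetylated and 1.64% of unacetylated CTCF regions. Over all CTCF regions 34.5% of acetylated and 43.9% of unacetylated ones held the core. Away from promoters the gap was smaller, at 39.8% and 44.01%, and at promoters the shares were 27.5% and 40.4%. The part of location in the difference per library was not tested. The gap between acetylated and unacetylated regions was found in every rank quintile. In the lowest rank quintile of CTCF regions 11.9% of acetylated and 26.6% of unacetylated regions held the core, and in the highest 59.2% and 73.4%. The CTCF regions outside acetylated chromatin held it at a similar rate at any distance, between 41.6% within 1 kb of an H3K27ac region and 45.6% at 5 to 20 kb.

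**Figure D3:**
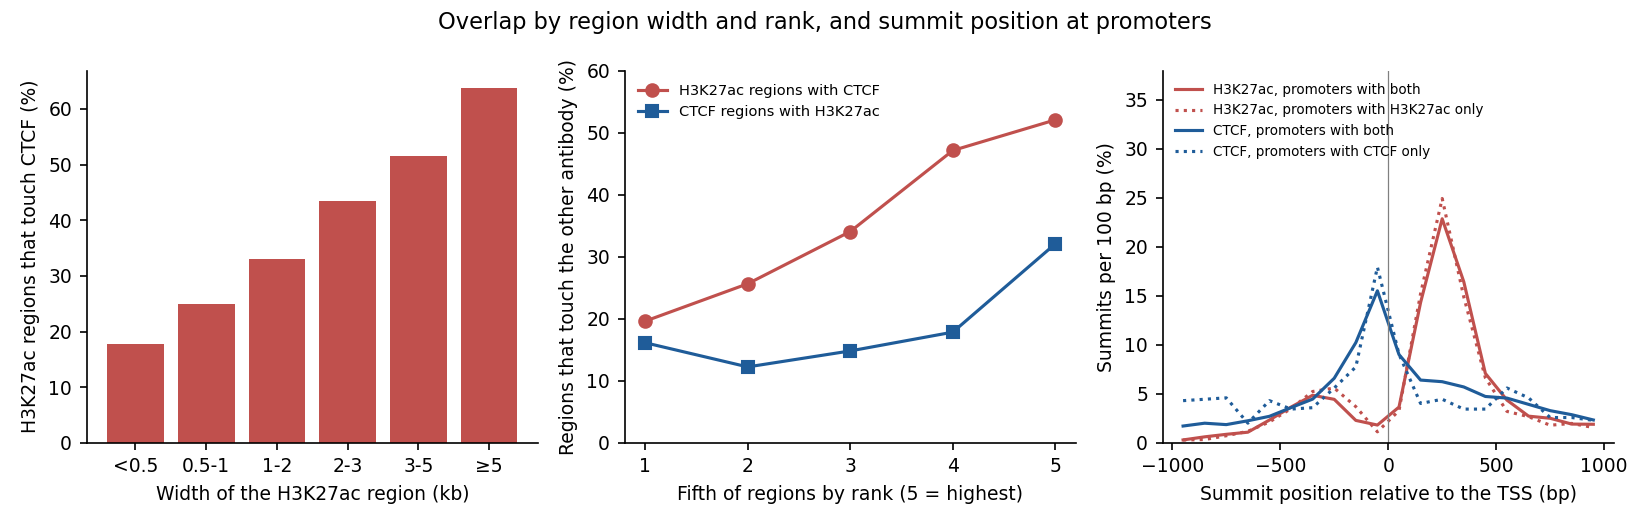
Share of H3K27ac regions touching CTCF in % by width in kb (left), share of regions touching the other antibody in % by quintile of rank (middle), and share of summits in % per 100 bp against the position relative to the TSS in bp at promoters with both or a single antibody (right). H3K27ac summits gather downstream of the TSS, with a median of 240 bp at promoters with both. CTCF summits lie on both sides of it, with a median of −11 bp and a median absolute distance of 265 bp.

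The promoters of 19111 protein-coding genes, taken as 1 kb on either side of the annotated 5′ end of the gene, fell into 4 classes. Both H3K27ac and CTCF were at 5515 (28.9%), acetylation alone at 6569 (34.4%), CTCF alone at 879 (4.6%), and neither at 6148 (32.2%). In all, 63.2% were acetylated and 33.5% had CTCF. CTCF was at 45.6% of the 12084 acetylated and at 12.5% of the 7027 unacetylated promoters. Genes whose active start is not the outermost annotated one can be misplaced by this rule. Without replicate 1 of both antibodies the 4 counts were 5430, 6641, 856 and 6184.

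The classes differed in sequence. The median number of CpG dinucleotides in 1 kb around the TSS was 80 for both, 70 for acetylation alone, 29 for CTCF alone and 15 for neither, and the median GC content was 64.1%, 61.2%, 56.6% and 50.6%. When promoters were split into CpG quartiles, CTCF was still more common at acetylated than at unacetylated promoters in each of them. It was at 34.7% against 8.36% in the lowest quartile and at 55.0% against 27.6% in the highest. The core motif occurred within 1 kb of the TSS in 47.7% of promoters with both, 28.7% with acetylation alone, 53.7% with CTCF alone and 25.8% with neither. Promoters shared with a protein-coding gene that starts on the opposite strand within 1 kb upstream made up 11.6% and 14.2% of the acetylated classes, 1.48% of CTCF alone and 1.24% of neither. The acetylated region was about equally wide with CTCF (median 2469 bp) and without it (2437 bp).

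Within a promoter the antibodies took different positions. Where a summit lay within 1 kb of the TSS, the H3K27ac summit was upstream at 22.2% of promoters with both and at 23.8% of those with acetylation alone, and the medians were 240 and 229 bp downstream. For CTCF, 50.9% of summits were upstream at promoters with both (median −11 bp) and 58.0% at promoters with CTCF alone (−41 bp). The CTCF summits were spread to both sides. At promoters with both, the median absolute distance from the TSS was 265 bp for CTCF and 302 bp for H3K27ac. Over 500 bp away lay 27.5% of these CTCF and 18.5% of these H3K27ac summits. The motif had a direction as well. Of the 1489 promoter CTCF regions with a core match, the match was upstream of the TSS in 933 (62.7%). Of these, 547 (58.6%) read in the direction of the gene, against 257 of 556 (46.2%) downstream of the TSS.

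The promoters of highest rank with both antibodies were those of U2AF2, SH3GL1, STAG1, SRP9, TBC1D4 and PAGR1. U2AF2 encodes a subunit of the splicing factor that recognises the polypyrimidine tract. Its promoter had H3K27ac folds of 26.3, 75.8 and 68.9 and CTCF folds of 70.3, 135 and 103 in replicates 1, 2 and 3. SH3GL1 encodes an endophilin of membrane traffic and had H3K27ac folds of 24.1, 82.5 and 78.7 and CTCF folds of 98.6, 147 and 185. STAG1 encodes a subunit of cohesin, the complex that CTCF halts. Its H3K27ac folds were 29.2, 79.9 and 87.1 and its CTCF folds 52.2, 143 and 109. In each of these genes replicate 1 was lowest for both antibodies. A core match lay 7 bp from the CTCF summit at U2AF2, 31 bp at SH3GL1 and 48 bp at STAG1, in the sequences printed above. At SRP9, a subunit of the signal recognition particle, TBC1D4, a Rab GTPase-activating protein of glucose uptake, and PAGR1, a cofactor of histone methyltransferases, the CTCF region of similar rank held no core match.

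Acetylation without any CTCF peak within 1 kb of the TSS was strongest at CSNK1E, RNF151, DACH1, DDX17, TLE4 and RNF138. The folds are those of the peak that touches the promoter, whose summit can lie beyond it, and the summit of the region was 1111 bp from the TSS at CSNK1E, 1630 bp at DACH1, 1636 bp at DDX17 and 1165 bp at RNF138. CSNK1E encodes casein kinase 1 epsilon of the circadian clock, with H3K27ac folds of 35.8, 118 and 114. RNF151 lies beside RPS2 and NDUFB10 and shares their acetylated region of 8098 bp, with folds of 32.5, 124 and 100.2. DACH1, a transcription factor of eye and kidney development, had folds of 28.4, 89.0 and 87.1 and 12 H3K27ac regions in the gene. DDX17 encodes an RNA helicase and had folds of 31.2, 114 and 77.3. The acetylated regions of RNF151, DACH1 and DDX17 reached beyond the promoter and touched 2, 1 and 1 CTCF regions there. TLE4, a Groucho corepressor, had 19.3, 69.3 and 63.5, and RNF138, a ubiquitin ligase, had 30.1, 83.0 and 86.5.

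CTCF without any H3K27ac peak was strongest at KCNH1, CEBPE, FAM167B, PSG4, CEACAM7 and CEACAM5, most of which are genes of other tissues. KCNH1 encodes a neuronal potassium channel, and its promoter had CTCF folds of 88.1, 144 and 133. CEBPE, a transcription factor of granulocytes, had 117, 116 and 158, the only one of these genes in which replicate 1 was not the lowest of the 3. FAM167B had 45.1, 56.9 and 93.9. The CTCF regions at KCNH1 and FAM167B held no core match. PSG4, a pregnancy-specific glycoprotein of the placenta, had 56.2, 84.3 and 106. CEACAM7 and CEACAM5, adhesion proteins of the gut epithelium, start on opposite strands and share 1 CTCF region with folds of 64.6, 134 and 101. The PSG and CEACAM genes belong to a family of similar copies on chromosome 19, so reads may be divided among copies there.

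Gene lists showed how function and promoter class went together. The lists were chosen with earlier results of these data known, and each is given beside the background of 63.2% acetylated and 33.5% with CTCF. Genes that every dividing cell uses were nearly all acetylated. Of 77 cytosolic ribosomal protein genes, 72 (93.5%) were acetylated and 33 (42.9%) had CTCF, with a median H3K27ac rank of 99.04 and a median region width of 4640 bp against 78.3 and 2453 bp over all acetylated genes. Of 33 proteasome subunit genes 31 were acetylated, of 36 mitochondrial complex I genes 35, of 20 cytosolic aminoacyl-tRNA synthetase genes 18 and of 20 E2F target genes 20. Among the E2F targets, which serve DNA replication and the cell cycle, CTCF was at 5 (ORC1, CCNA2, CCNE2, PCNA and E2F1). The promoter of MCM2, a subunit of the replicative helicase, had H3K27ac folds of 22.3, 73.2 and 81.0 and no CTCF peak.

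The genes of CTCF and cohesin themselves had CTCF at 9 of 15 promoters (60%), and 14 of 15 were acetylated. At the CTCF gene the H3K27ac folds were 18.9, 62.2 and 59.8 and the CTCF folds 22.96, 77.2 and 47.2. NIPBL, the loader of cohesin, had CTCF folds of 9.27, 15.7 and 16.0. RAD21, which closes the cohesin ring, met the rule with CTCF folds of 3.23 and 3.29 in replicates 2 and 3 and no peak in replicate 1. SMC3, a subunit of the ring, had H3K27ac folds of 20.3, 71.0 and 63.3 and no CTCF peak. REC8, the meiotic cohesin subunit, had neither.

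The clustered protocadherins were the reverse of the housekeeping lists. These cell-surface proteins of neurons are encoded by 3 tandem clusters on chromosome 5, and CTCF binding at their alternative promoters is known to take part in promoter choice. CTCF was at 48 of 53 promoters and H3K27ac at 2, PCDHGA11 and PCDHGC3. By cluster, CTCF was at 14 of 15 alpha, 15 of 16 beta and 19 of 22 gamma promoters. Over the promoters with CTCF the median fold was 7.12 in replicate 1, in which 33 had a peak, 23.6 in replicate 2 and 22.4 in replicate 3. In the beta cluster only 3 of the 15 had a peak in replicate 1. The summit lay at the TSS in the beta and gamma clusters, with median offsets of −7 and 1 bp, and 486 bp downstream in the alpha cluster. A core match was found at 5 alpha, 5 beta and 0 gamma promoters, and 5 of the alpha and 2 of the beta matches read in the direction of the gene. These promoters are similar copies, so reads may be divided among them.

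**Figure D4:**
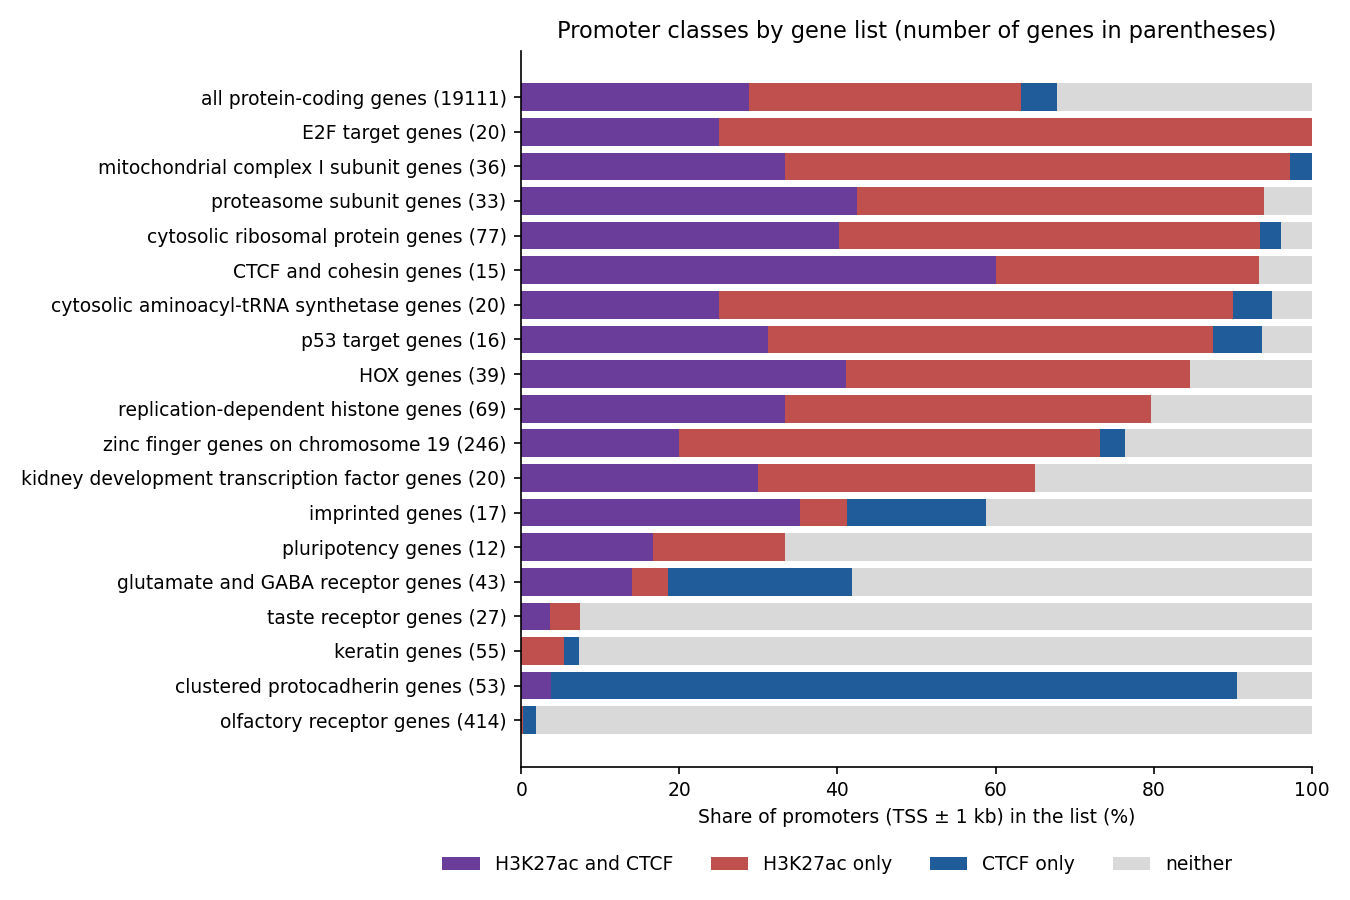
Share of promoters in % with H3K27ac and CTCF, with H3K27ac only, with CTCF only and with neither, for all 19111 protein-coding genes and for 18 gene lists. Acetylation reaches 100% of the E2F target genes and 3.8% of the clustered protocadherin genes, 90.6% of which have CTCF.

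Other lists differed widely in both antibodies, beside 63.2% acetylated and 33.5% with CTCF over all promoters. Of 414 olfactory receptor genes 1 was acetylated (OR1F1) and 7 had CTCF. Of 55 keratin genes 3 were acetylated, among them KRT8 and KRT18, the keratins of simple epithelia, which share 1 region with H3K27ac folds of 4.06, 10.4 and 12.3. Of 27 taste receptor genes 2 were acetylated. Of 43 glutamate and GABA receptor genes 8 (18.6%) were acetylated and 16 (37.2%) had CTCF, the latter near the share over all promoters. CTCF without acetylation was at 10 of the 43 (23.3%), against 4.6% of all promoters. GRIN2B, an NMDA receptor subunit, was one of these, with CTCF folds of 20.6, 26.1 and 23.8. Of 17 imprinted genes 7 (41.2%) were acetylated and 9 (52.9%) had CTCF. PEG10 had both, with H3K27ac folds of 6.63, 27.2 and 23.8 and CTCF folds of 22.05, 56.1 and 45.2, and GNAS and MEST had CTCF alone. Of 16 p53 target genes 14 were acetylated, among them CDKN1A, MDM2 and BAX. Of 69 replication-dependent histone genes 55 (79.7%) were acetylated and 23 (33.3%) had CTCF, the latter as over all promoters. Of the 246 zinc finger genes of chromosome 19, 180 (73.2%) were acetylated and 57 (23.2%) had CTCF. These histone, zinc finger and receptor families also hold similar copies.

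The labelled cell line was checked against markers. Of 12 genes associated with HEK293 cells 10 were acetylated, among them VIM (H3K27ac folds of 19.6, 69.8 and 70.2), CDH2, the neurofilament genes NEFM, NEFL and INA, SOX4 and EN2. PAX2, a transcription factor of the developing kidney, had neither. Of 20 transcription factors of kidney development 13 (65%) were acetylated, close to the 63.2% of all promoters, and 7 had neither. SALL1 among them had H3K27ac folds of 34.8, 101 and 71.8. Of 12 pluripotency genes 4 were acetylated (SOX2, KLF4, DNMT3B and SALL4). Of 9 markers of the mature nephron 4 were acetylated. Of the markers of other cell types, none of 6 hepatocyte, 6 blood, 5 erythroid and 6 muscle genes was acetylated. KDR among 6 endothelial genes had H3K27ac folds of 3.35 and 3.95 in replicates 2 and 3, and COL1A1 among 6 fibroblast genes 5.76 and 8.65. COL1A1 also had CTCF folds of 70.9, 138 and 105. CTCF alone was at 3 of the hepatocyte genes and at MYOD1 and MYOG among the muscle genes, with folds of 17.5, 34.6 and 30.2 at MYOD1.

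Acetylation was longest in the HOX clusters, which encode the transcription factors of body segment identity. The widest H3K27ac region, chr7:27138311-27189635, spanned 51325 bp from HOXA3 to HOXA11 and held 6 CTCF regions, 2 of them with the core matches printed above. This width is that of 1 peak of replicate 2, and the widest peaks anywhere in replicates 1 and 3 were 25973 and 26182 bp. The highest peaks in the region had folds of 35.5, 118 and 98.2. Next came regions of 23009 bp in HOXC and 22645 bp in HOXB, and 6 of the 10 widest regions lay in these 3 clusters. H3K27ac covered 78.3% of the HOXA, 75.8% of the HOXC, 40.1% of the HOXB and 31.7% of the HOXD cluster. The clusters held 12, 13, 16 and 8 CTCF regions, of which 11, 11, 10 and 6 were acetylated. HOX gene promoters were acetylated in 33 of 39 and had CTCF in 16. The 4 other regions among the 10 widest were of 21333 and 20011 bp on chromosome 8 with ZNF703 as the nearest gene, 19490 bp at NR2F2, a nuclear receptor, and 18984 bp over SNX5, OVOL2 and MGME1. The fold of the region of 21333 bp was 57.9 in replicate 1 and 16.8 and 20.6 in the other 2. The widest CTCF regions, of 6787 and 6604 bp, were both in TTC34 on chromosome 1 and unacetylated, followed by regions at RFPL2 (5550 bp), on chromosome 14 near TMEM121 (4814 bp) and in BCL6 (4393 bp).

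Longer genes held more regions of both antibodies. In the shortest quintile of genes (median 3.78 kb) the mean number was 0.543 H3K27ac and 0.457 CTCF regions per gene with its promoter, and in the longest (median 162 kb) 2.31 and 4.50. The genes with the most CTCF regions and no H3K27ac region were NTM (34), PTPRN2 (25), ASIC2 (24), DPP6 (24) and FSTL4 (20). NTM encodes a neural adhesion protein, ASIC2 an ion channel of neurons, DPP6 an auxiliary subunit of potassium channels, and PTPRN2 a protein of dense-core vesicles. They span 416087 (FSTL4) to 1161878 bp (ASIC2). The genes with the most H3K27ac regions were FOXP1 (41) with an overlapping readthrough gene (43), GMDS (41), LRMDA (38) and AUTS2 (26). FOXP1 encodes a forkhead transcription factor, GMDS an enzyme of fucose synthesis and AUTS2 a protein of neuronal development. These genes held 13 to 17 CTCF regions each.

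Among the consensus regions, which were fewer for H3K27ac, long stretches without a region were more frequent for H3K27ac than for CTCF. Fewer regions leave longer gaps, and the long stretches were not compared at equal numbers of regions. Per library the median gap was 28051, 26383 and 26237 bp for H3K27ac and 27922, 22409 and 23386 bp for CTCF, and these values overlapped (exact permutation test, two-sided, p = 0.3). At equal list length the mean of the medians was 30270 bp for H3K27ac and 41299 bp for CTCF. Over consensus regions the median was 31212 bp for H3K27ac and 23987 bp for CTCF, while gaps under 5 kb made up 19.5% and 16.5% and gaps over 500 kb 3.68% and 0.407%. Over 1 Mb there were 371 gaps of H3K27ac, which took 729.7 Mb of the autosomes, and 28 of CTCF, which took 107 Mb, assembly gaps included. Between neighbouring CTCF regions, 76.5% of the intervals held no H3K27ac summit (median length 18.7 kb) and 2.90% held 3 or more (84.3 kb). Between neighbouring H3K27ac regions, 47.7% of the intervals held no CTCF summit and 20.9% held 3 or more, up to 64.

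The longest stretches without acetylation lay in gene-poor chromatin that held CTCF at less than its autosomal density. The longest, chr16:58734811-66426705 (7.69 Mb), held 44 CTCF regions and the starts of 3 genes, CDH8, CDH11 and CDH5, which encode cadherins. The next was of 4.998 Mb on chromosome 8 with FAM135B, COL22A1 and KCNK9 and 63 CTCF regions, and the next of 4.97 Mb on chromosome 11 with LRRC4C and 24 CTCF regions. Their GC content was 37.9%, 41.6% and 36.9%. All 3 had fewer CTCF regions per Mb than the 19.8 over all autosomes. The longest stretches without CTCF were of 1.81, 1.58 and 1.36 Mb on chromosomes 16, 11 and 4. They held no start of a protein-coding gene, and the first lay inside the longest stretch without H3K27ac. Stretches with an assembly gap of 50 kb or more were left out. Whether reads can be placed in the sequence of the stretches listed was not tested.

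Of 2758 bins of 1 Mb, 2434 held both antibodies, 281 only CTCF, 43 neither and 0 only H3K27ac. The bins with CTCF alone had a median of 6 CTCF regions, and 170 of them held no start of a protein-coding gene. The median GC content was 36.8% in them and 40.1% in all bins. CTCF regions per H3K27ac region went from 2.80 in the lowest GC quintile of bins to 1.86 in the highest. The bin richest in CTCF, chr14:106000001-107000000, held 78 CTCF regions and 0 H3K27ac regions. It lies in the immunoglobulin heavy chain locus, which is rearranged in B cells only and is made of similar copies. The bins of the next ranks, at 18 to 19 Mb and 50 to 51 Mb of chromosome 19, held 75 and 74 CTCF regions with 53 and 28 H3K27ac regions. H3K27ac was densest at 1 to 2 Mb of chromosome 19, with 66 regions beside 71 of CTCF in a bin with 39 gene starts. The next 2 bins, at 28 to 29 Mb and 27 to 28 Mb of chromosome 6, held 66 and 62 H3K27ac regions and 30 and 35 CTCF regions. They contain histone genes (H2BC11, H4C9, H3C10) and zinc finger genes (ZKSCAN8, ZSCAN9).

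Chromosomes differed more in acetylation than in CTCF. H3K27ac regions ranged from 5.63 per Mb on chromosome 18 to 25.7 on chromosome 19, and CTCF regions from 13.1 on chromosome 4 to 37.6 on chromosome 19. The range was 4.57-fold for H3K27ac, 2.87-fold for CTCF and 7.66-fold for protein-coding genes. CTCF regions per H3K27ac region were fewest on chromosome 19 (1.46) and most on chromosome 18 (2.51). On chromosome 19, 28.9% of CTCF regions were acetylated, and on chromosome 18 11.7%. Over the 22 autosomes the densities of the antibodies went together with Pearson's r of 0.961 and Spearman's rho of 0.948, which is a description of points that share gene density, base composition and copy number. Per library, the density on chromosome 19 over that on all autosomes was 2.38, 2.76 and 2.63 for H3K27ac and 2.30, 1.89 and 1.89 for CTCF (exact permutation test, two-sided, p = 0.1, adjusted p = 0.125). The difference of 0.564 shrank to 0.131 at equal list length, and it was 0.699 without CTCF replicate 1.

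**Figure D5:**
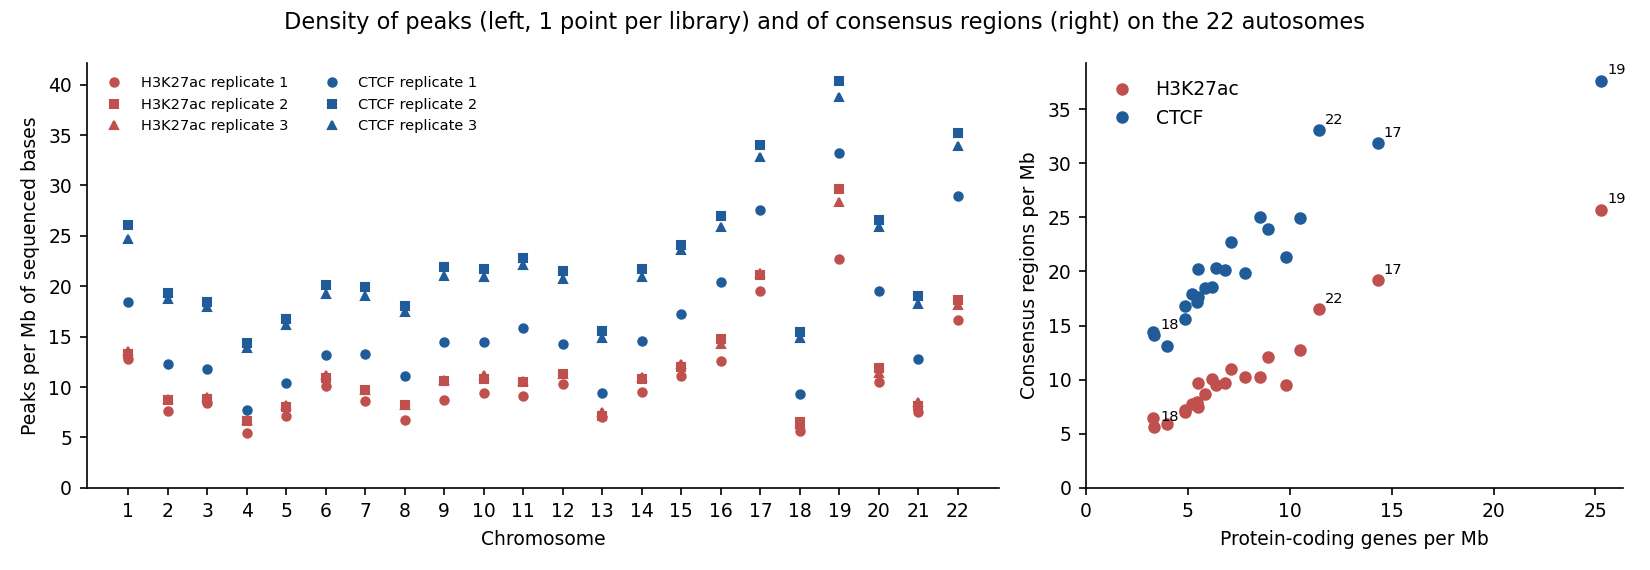
Peaks per Mb of sequenced bases on each autosome with 1 point per library (left), and consensus regions per Mb against protein-coding genes per Mb with 1 point per autosome and antibody (right, chromosomes 17, 18, 19 and 22 labelled). Chromosome 19 stands highest for both antibodies, at 25.7 H3K27ac and 37.6 CTCF regions per Mb.

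The direction of neighbouring CTCF motifs depended on their distance. Among 22983 neighbouring pairs of CTCF regions with a core match, 49.8% read in the same direction, 25.1% toward each other (convergent) and 25.1% away from each other. Convergent pairs made up 20.2% of the 1554 pairs under 5 kb apart, 21.7% at 5 to 20 kb, 24.9% at 20 to 100 kb and 28.1% of the 7826 pairs at 100 kb or more. Pairs with at least 1 H3K27ac summit between them were convergent in 27.5% and pairs without one in 22.9%. These differ in distance, and among pairs 20 to 100 kb apart the shares were 26.97% and 22.99%. Unacetylated CTCF sites within 20 kb of an acetylated region faced it in 3374 of 6737 cases (50.1%). No test was made of these shares, since neighbouring pairs share regions.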

How the data were processed

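ChIP-seq peak lists of 3 H3K27ac and 3 CTCF libraries of untreated HEK293T cells were analysed, grouped by the sample labels. The authors aligned reads to hg38 with Bowtie2 and called peaks in each library separately with MACS3 (version 3.0.0a7 per the labels) in paired-end mode at a q-value of 0.05, and use of the input and treatment of duplicates were not stated. The deposited lists hold a score, the fold enrichment (a ratio over local background), the −log10 p-value and q-value, and the summit. Read totals are unknown, so background coverage was recovered from the authors' fold and p-value. Peaks were merged by 1 bp of overlap and kept in at least 2 of 3 libraries. Annotation came from GENCODE 44. A base composition window was 501 bp around the summit. The CTCF consensus was read from the study's motif table, in full (20 letters) and, chosen after seeing the data, as its core (letters 6 to 18, 13 letters), with at most 2 mismatches, on both strands, within 100 bp of the summit. Genes were named by rank within a promoter class, by width, count or density of regions, by the stretches without regions, and by membership of the lists. The members and lists were chosen with earlier results of these data known. Libraries were compared with exact permutation tests (scipy 1.17.1) and classes within a library with exact sign-flip tests, with Benjamini-Hochberg adjustment. Python 3.11.15, numpy 2.4.6, pandas 2.3.3, pysam 0.24.0 and samtools 1.23.1 were used. The code was tested on simulated data. Alternatives are given in the closing section.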

Additional observations from a re-analysis of the deposited data

How the results depend on the processing

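Of 213 recomputed values 204 kept their direction, or stayed within 1.5 times for counts. Some of the 204 equal the main value by construction. These are the 10 differences of the replicate block and the motif difference between promoters and other sites under the rule of 3 of 3. Others could not change direction. Leaving out 1 library cannot reverse a difference in which the libraries of the antibodies do not overlap. Nor can it reverse a within-library difference with the same sign in 3 of 3 libraries. The consensus counts without replicate 1 of both antibodies repeat those without replicate 1 of each. No comparison between libraries could pass 0.05, so the p-values say nothing about stability. With every list shortened to 26299 peaks the difference in the median gap turned to −11028 bp (30270 bp for H3K27ac, 41299 bp for CTCF), and the number of peaks was then equal by construction. With consensus regions required in 3 of 3 libraries, 34644 CTCF regions remained, 6256 H3K27ac regions touched CTCF, 6634 CTCF regions touched H3K27ac, and the fold of acetylated minus unacetylated CTCF peaks was −2.08. Leaving out 1 library at a time, the CTCF consensus ranged from 35281 (without replicate 2; 35757 without replicate 3) to 52935 (without replicate 1), since fewer libraries can meet the rule of 2. The difference in covered length ranged from −0.0906 Mb (without CTCF replicate 1) to 9.29 Mb, and the CTCF fold difference from −0.67 (without CTCF replicate 1) to 1.07. The cause of the changes with replicate 1 was not tested.

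In a replicate block, in which libraries of the same number were paired, the differences were the same (23.3 percentage points for the promoter share) and the exact sign-flip permutation test gave p = 0.25, the smallest it can give, for 10 of 10 comparisons. Over 2887 bins of 1 Mb the deviations of same-numbered libraries correlated with r of 0.136, −0.0018 and 0.0881, and not every library correlated best with its own number (0.169 between H3K27ac replicate 3 and CTCF replicate 2). The numbers were therefore not used to pair the libraries, and whether replicates 1 share a batch was not tested.

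Counting error is small at these list lengths, read totals are unknown, and a peak list says nothing of regions under the threshold of the caller.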
